A study of Mus musculus with 21 samples.

Results

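Transcripts of 37 genes that code for proteins of the sarcomere and of the Z-disc were measured in 21 mouse hearts. The genes were taken by name from a fixed list of muscle structure genes, and all 37 were found among the 19096 genes of the deposited gene table and passed the filter on low counts. Per the labels, male C57BL/6NJ mice aged 8 to 10 weeks were randomized to 10 weeks of chow or of a high-fat diet (HFD, 60% of calories as fat). A further randomization assigned them AAV-Renin, an adeno-associated virus vector carrying renin, or a null vector. The vector was injected retro-orbitally, and hearts were collected 6 weeks later. The 4 groups were chow with the null vector (chow control, n = 4), chow with AAV-Renin (chow renin, n = 6), HFD with the null vector (HFD control, n = 6) and HFD with AAV-Renin (HFD renin, n = 5). The sample titles name the null vector groups novirus. The series description sets out to model heart failure in which the ejection fraction is preserved, by combining HFD and renin, and compares it with each of them alone. The serotype, the promoter that drives renin and the region of the heart taken are not given in the sources used here. In whole-tissue RNA, fewer cells of a type and less RNA per cell cannot be told apart.

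The sarcomere is the contractile unit of heart muscle. Myosin thick filaments, held at the M-band by myomesins, slide along actin thin filaments, which are anchored by α-actinin at the Z-disc. Titin spans from the Z-disc to the M-band as a molecular spring. Troponin and tropomyosin switch the thin filament on and off with calcium. Proteins of the Z-disc also link the contractile lattice to desmin filaments and to the cell membrane, sense load, and turn over when load is high.

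Libraries held 18.6 to 29.0 M estimated reads in genes, and every chow control library (at most 21.2 M) was shallower than every library of the other groups (at least 22.6 M). The members together took 3.77% to 4.57% of these reads. All 12 cardiomyocyte markers outside the list passed the filter on low counts. Their mean log2 CPM averaged 9.14 in chow control, 8.92 in chow renin, 9.08 in HFD control and 8.96 in HFD renin, and its part in the falls below was not tested. The 12 skeletal muscle markers summed to 2.74 to 11.9 CPM, a counts-per-million unit scaled here by TMM factors. The libraries chow control 3, chow renin 1 and 3, HFD control 3 and HFD renin 3 had an atrial score (mean log2 CPM of 5 atrial genes) of 5.63 to 6.86, against at most 1.07 in the other libraries. The 8 central neuron markers, none at 0 in all libraries of a group, summed to 148 to 244 CPM in chow renin and to 45.8 to 80.8 CPM in the other groups. The 6 oligodendrocyte markers summed to 104 to 173 CPM in chow renin and 32.0 to 59.2 CPM elsewhere, and the 5 astrocyte markers to 85.9 to 150 CPM and 21.4 to 40.8 CPM, with none at 0 in all libraries of a group. The 7 fibroblast markers summed to 925 to 1457 CPM in HFD renin and to 572 to 1379 CPM in the others. The part of the neuron, glial and fibroblast markers in the results below was not tested.

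Levels between genes were compared in TPM, a transcripts-per-million unit that is corrected for transcript length. The most abundant member was Myl2, the ventricular regulatory light chain, with a median of 8357 TPM over the 21 hearts. It was followed by Tnnt2 (cardiac troponin T) at 7649, Tpm1 (α-tropomyosin) at 4716, Myl3 (the ventricular essential light chain) at 4143, Tnni3 (cardiac troponin I) at 2781 and Tnnc1 (cardiac troponin C) at 2342 TPM. Over hearts, the ranges of neighbours in this order overlapped except those of Tnnt2 and Tpm1, and the range of Tnnc1 overlapped that of Tcap. In HFD renin the order of Tnni3 and Tnnc1 turned, with means of 2180 TPM for Tnni3 and 2279 for Tnnc1. Tcap, the titin cap of the Z-disc, had a median of 1468 TPM and Mybpc3, cardiac myosin binding protein C, 858. Titin itself, whose transcript is the longest of the list, reached 30.3 TPM. At the lower end stood Myom3 with 1.09 TPM and Tnni1, the slow skeletal troponin I, with 0.141 TPM.

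**Figure D1:**
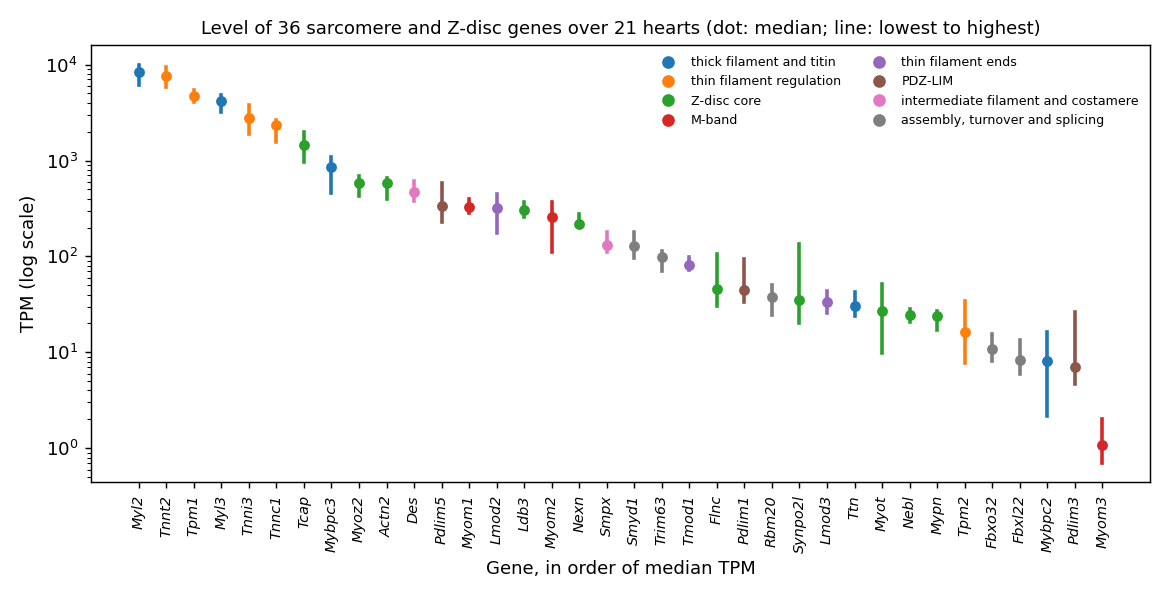
TPM on a log axis of 36 members in order of their median, with a dot at the median and a line from the lowest to the highest of 21 hearts; Tnni1, at 0 in several libraries, is left out. Light chain, troponin and tropomyosin transcripts lead, and Myom3 is last at 1.09 TPM.

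In HFD renin against HFD control, the called light chain, troponin and tropomyosin genes were all lower, and the called M-band, PDZ-LIM and desmin genes were all higher. Against HFD control, 15 of 37 members were called (adjusted p under 0.05) in HFD renin, with 10 of them higher and 5 lower, where 11.1% of all 15216 genes tested were called, 6.07% higher and 5.08% lower. The median log2 fold change was 0.15 over the members and -0.01 over all genes. Against chow control, 8 members were called, 3 higher and 5 lower, with 8.29% of all genes called, 4.05% higher and 4.25% lower. Against chow renin 15 members were called, 12 higher and 3 lower, where 22.6% of all genes were called, 9.80% higher and 12.8% lower. In chow renin against chow control 4 members were lower and 0 higher, where 13.5% of all genes were called, 10.1% higher and 3.36% lower. HFD alone moved 0 members past the threshold in edgeR, with 0.0657% of all genes called (0.0131% higher and 0.0526% lower), although 8 members had an unadjusted p under 0.05, as had 1668 of all 15216 genes, and DESeq2 called 1. The interaction, the renin effect in HFD hearts less the one in chow hearts, was called in 10 members, all positive, where 10.4% of all genes were called, 3.14% positive and 7.30% negative. Against HFD control, the called members were 2 higher and 1 lower of 5 thick filament and titin genes, 3 lower of 6 thin filament regulators, 3 higher and 1 lower of 10 Z-disc genes, and 2 higher of 3 M-band genes. They were 0 of 3 genes of the thin filament ends, 2 higher of 3 PDZ-LIM genes, 1 higher of 2 intermediate filament and costamere genes, and 0 of 5 genes of assembly, turnover and splicing. Groups that did not overlap at all were found in 5 members higher and 2 lower against HFD control, where this holds for 1.95% and 1.52% of all genes. Against chow control they were 1 higher and 6 lower, with 4.98% and 5.07% of all genes. Against chow renin they were 10 higher and 0 lower, with 5.55% and 9.78%. For renin on chow they were 0 higher and 7 lower, with 10.4% and 4.75%, and for diet alone 0 higher and 3 lower, with 1.06% and 1.36%. These comparisons share groups, so their counts are not independent of each other. With upper-quartile scaling the share of higher calls among all called genes moved from 75.0% to 86.0% in chow renin against chow control, from 43.3% to 27.3% in HFD renin against chow renin, and from 30.1% to 19.0% in the interaction. The members' split with that scaling was 0 higher and 3 lower, 8 and 3, and 9 and 0. Single hearts moved these counts, and the shares of all genes called in those fits are not given beside them. Without HFD renin 1 or 5, 8 members were called against HFD control in each case, and 6 and 9 against chow renin. In HFD renin against chow control, 4 were called without chow control 1, 2 or 4 or HFD renin 5, and 5 without HFD renin 1 or 2. The interaction was called in 6 without chow control 1 or 2 or HFD renin 1, and renin on chow in 8 without chow control 3.

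**Figure D2:**
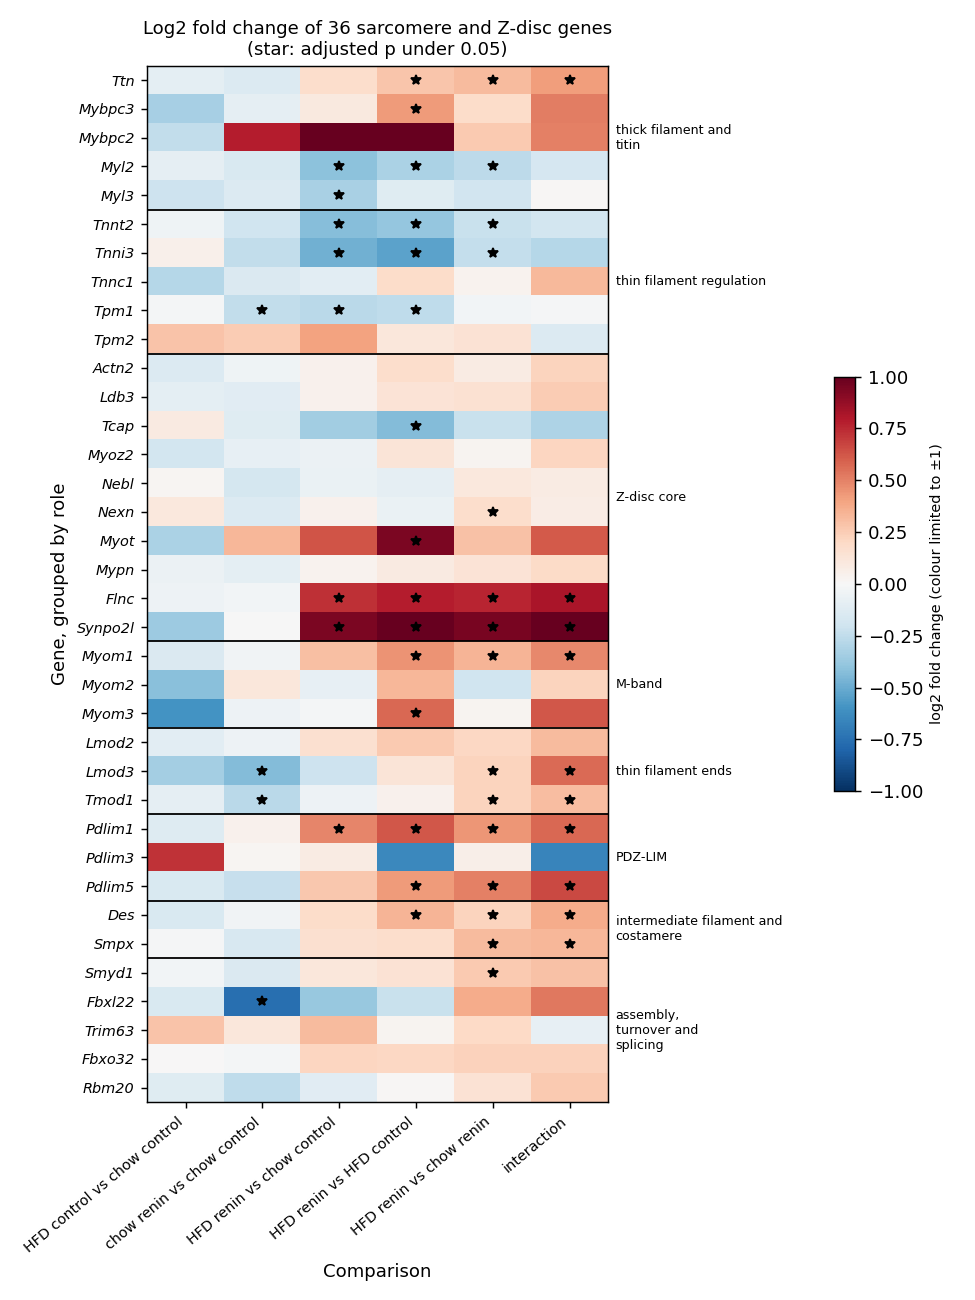
Log2 fold change of 36 members (rows, grouped by role) in 6 comparisons (columns), blue for lower, red for higher, with a star where the adjusted p is under 0.05; Tnni1 is left out. In HFD renin against HFD control 5 lower members are starred: Myl2, Tnnt2, Tnni3, Tpm1 and Tcap. The 10 higher ones there are Ttn, Mybpc3, Myom1, Myom3, Myot, Pdlim1, Pdlim5, Des, Flnc and Synpo2l.

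Among thick filament genes, Myl2 was lower in HFD renin than in every other group, and Ttn was higher than in HFD control and chow renin. Myl2 read 3010.3, 2986, 3478, 3418 and 2833 CPM in the 5 HFD renin hearts, 3184 to 4267 (median 4112) in HFD control, 3329 to 4215 (median 3735) in chow renin and 4128, 4252, 3654 and 4673 in chow control. All HFD renin hearts lay below all chow control hearts, while they overlapped HFD control. Its log2 fold change, given here and below with its standard error from the edgeR fit, was -0.41 ± 0.09 (adjusted p = 0.00922) against chow control, -0.32 ± 0.09 (adjusted p = 0.0194) against HFD control and -0.26 ± 0.09 (adjusted p = 0.0298) against chow renin. Myl3 fell only against chow control among the comparisons tested, by 0.32 ± 0.10 (adjusted p = 0.0463) on the log2 scale, with 3030.2, 3206, 2856, 2694 and 2861 CPM in HFD renin, 2569.97 to 3949 (median 3127) in HFD control, 2763 to 3638 (median 3418) in chow renin and 3748, 3839, 3277 and 3809 in chow control. HFD renin lay below all chow control hearts. The fall of Myl3 against chow control less that against HFD control equals HFD control against chow control. Less that against chow renin, it equals chow renin against chow control. Myl3 was called in neither of these. Ttn (chr2:76703980-76982547, minus strand in GRCm38) read 3004, 2353, 2314, 2262 and 2676 CPM in HFD renin, 1721 to 2449.8 (median 2093) in HFD control, 1846 to 2218 (median 2006) in chow renin and 2428, 2343, 2025 and 2111 in chow control. HFD renin lay above all chow renin hearts and overlapped HFD control. The log2 fold change of Ttn was 0.28 ± 0.09 (adjusted p = 0.0379) against HFD control, 0.32 ± 0.09 (adjusted p = 0.00833) against chow renin and 0.42 ± 0.12 (adjusted p = 0.0321) for the interaction. Against chow control the groups overlapped and Ttn was not called, at 0.18 ± 0.09 (adjusted p = 0.256). With the length trend of each library removed, Ttn went to -0.00 (adjusted p = 0.981) against chow control and to 0.10 (adjusted p = 0.269) against HFD control. Mybpc3, which tunes cross-bridge cycling, read 4875, 5632, 4296, 3498 and 4583 CPM in HFD renin, 2315 to 4000.4 (median 3743) in HFD control, 2903 to 4743 (median 4112) in chow renin and 4239.8, 4401, 4250.2 and 4206 in chow control. Against HFD control it differed by 0.43 ± 0.14 (adjusted p = 0.0497), and these groups overlapped. The lowest of these HFD control values is that of replicate 6. Mybpc2, the fast skeletal form, was called in no comparison over all 21 hearts, with 1.28 ± 0.41 against HFD control (adjusted p = 0.053). Without the 5 libraries of high atrial score, where Mybpc2 is high, it was called against HFD control at 1.499 (adjusted p = 0.00195), against chow control at 1.43 (adjusted p = 0.00549) and for renin on chow at 0.94 (adjusted p = 0.0351). Several of these calls did not hold without single hearts, numbered as in the labels: leaving out 1 library ended the calls of Myl2 without chow control 4 (adjusted p = 0.0511) and Myl3 without chow control 1, 2 or 4 and HFD renin 1, 2, 3, 4 or 5 (adjusted p 0.0509 to 0.127) against chow control. Against HFD control this ended those of Myl2 without HFD renin 1, 2 or 5 (adjusted p 0.0557 to 0.0681), Ttn without HFD control 2, 3, 5 or 6 and HFD renin 1, 2 or 5 (adjusted p 0.0513 to 0.19) and Mybpc3 without HFD control 2, 3 or 6 and HFD renin 1, 2, 3 or 5 (adjusted p 0.0513 to 0.152). Against chow renin it ended those of Myl2 without chow renin 2 or 4 and HFD renin 1, 2 or 5 (adjusted p 0.0523 to 0.0904) and Ttn without HFD renin 1 (adjusted p = 0.0781). The interaction of Ttn was lost without chow control 1 or 2, chow renin 1, 3, 4 or 5, HFD control 3 and HFD renin 1 or 5 (adjusted p 0.0516 to 0.113).

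Of the 6 genes that regulate the thin filament, Tnni3, Tnnt2 and Tpm1 were lower in HFD renin than in both control groups. Tnni3, the inhibitory subunit of troponin (chr7:4518305-4524229, minus strand), read 1427, 1431, 1740.4, 1817 and 1449.6 CPM in HFD renin, 2003 to 2762 (median 2237) in HFD control, 1767 to 1985 (median 1826) in chow renin and 2211, 2274, 1952 and 2338 in chow control. Every HFD renin heart was below every heart of both control groups. The log2 fold change was -0.53 ± 0.08 (adjusted p = 0.000818) against HFD control and -0.48 ± 0.09 (adjusted p = 0.00267) against chow control, and both calls held in every fit that left out 1 library. Tnnt2, which ties troponin to tropomyosin, read 5214, 5510.4, 6229, 6032 and 5062 CPM in HFD renin, 6481 to 8236 (median 7162) in HFD control, 5798 to 7203 (median 6548) in chow renin and 7860.2, 7861, 6646 and 7759 in chow control. Neither control group overlapped HFD renin, at -0.39 ± 0.08 (adjusted p = 0.00304) and -0.43 ± 0.08 (adjusted p = 0.00344) on the log2 scale, and both calls held in every such fit. Against chow renin the falls were smaller in size, -0.24 ± 0.08 (adjusted p = 0.0438) for Tnni3 and -0.22 ± 0.08 (adjusted p = 0.037) for Tnnt2. Tpm1 was lower in both renin groups. It read 4477, 4795, 5154, 5368 and 4506 CPM in HFD renin, 4685 to 5227 (median 4955) in chow renin, 4909 to 6347 (median 5948) in HFD control and 5939.6, 5889.7, 5384 and 6264 in chow control, and neither renin group overlapped chow control. Its log2 fold change was -0.25 ± 0.07 (adjusted p = 0.023) for renin on chow, -0.27 ± 0.08 (adjusted p = 0.028) for HFD renin against chow control and -0.26 ± 0.07 (adjusted p = 0.0195) against HFD control, and its interaction was -0.01 ± 0.10 (adjusted p = 0.978). Tnnc1, the calcium-binding subunit, was called in no comparison and had -0.11 ± 0.11 (adjusted p = 0.605) against chow control. Its mean was higher in HFD renin, at 1190 CPM, than in HFD control, at 1048. Tpm2 (β-tropomyosin) and Tnni1 were also called in none, with 20.5 to 32 CPM and 0 to 0.646 CPM in HFD renin. Calls that ended without 1 library were those of Tpm1 without chow control 1, 2 or 4 and HFD renin 1, 2 or 5 (adjusted p 0.0565 to 0.108) against chow control and Tpm1 without HFD renin 1 or 5 (adjusted p = 0.0679 in each) against HFD control. For renin on chow this was Tpm1 without chow control 1, 2 or 4 and chow renin 1, 2, 3 or 5 (adjusted p 0.0504 to 0.0945). Against chow renin these were Tnnt2 without chow renin 2 or 4 and HFD renin 1, 2 or 5 (adjusted p 0.0514 to 0.112) and Tnni3 without chow renin 2, 4 or 6 and HFD renin 1, 2 or 5 (adjusted p 0.0515 to 0.118).

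**Figure D3:**
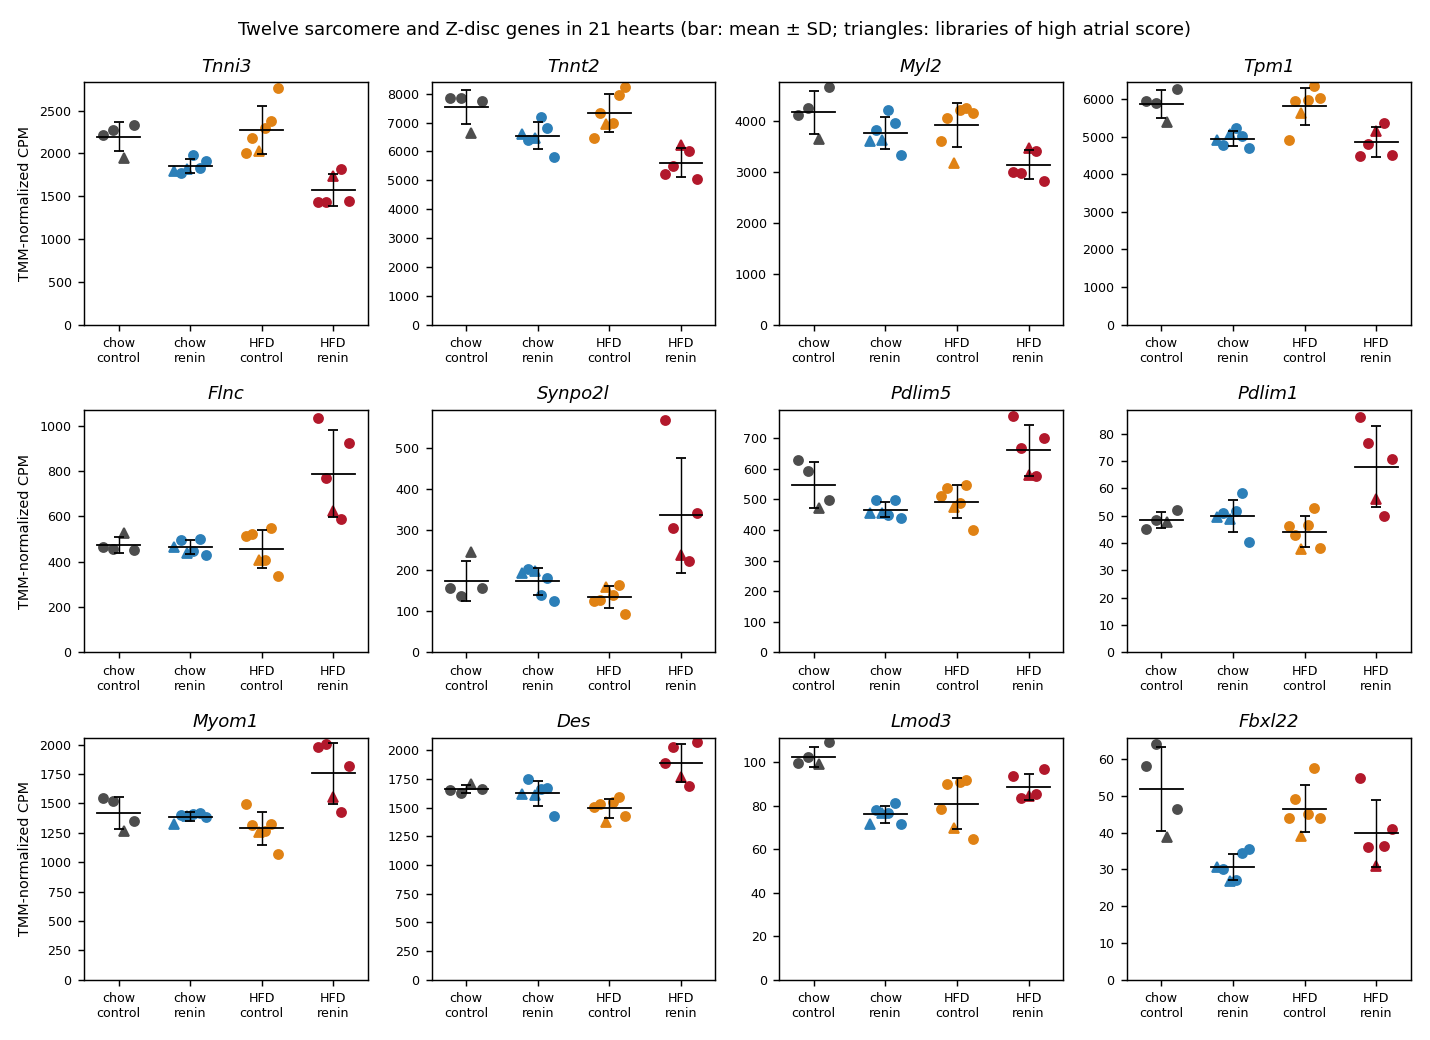
TMM-normalized CPM of 12 members in each of 21 hearts by group, with a bar at the mean ± SD and triangles for the 5 libraries of high atrial score. HFD renin hearts read 1427 to 1817 CPM for Tnni3, below all control hearts, and 587 to 1034 CPM for Flnc, above all other hearts.

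Among Z-disc genes, Flnc and Synpo2l were higher in HFD renin than in each other group. Flnc codes for filamin C, an actin cross-linker of the Z-disc and the membrane attachment sites. It read 1034, 771, 622, 587 and 923 CPM in HFD renin, against 338 to 550.1 (median 462) in HFD control, 431 to 500.1 (median 456) in chow renin and 462, 454, 526 and 451 in chow control. All HFD renin hearts lay above all other hearts. The log2 fold change was 0.78 ± 0.13 (adjusted p = 0.00138) against HFD control, 0.73 ± 0.15 (adjusted p = 0.00441) against chow control and 0.76 ± 0.13 (adjusted p = 0.000151) against chow renin. The interaction was 0.82 ± 0.19 (adjusted p = 0.00633). These calls held in every fit that left out 1 library. Synpo2l, a Z-disc protein that binds actin, read 569, 304, 237, 222 and 341 CPM in HFD renin, 92.8 to 165 (median 134) in HFD control, 126 to 202 (median 187) in chow renin and 157, 136, 245 and 157 in chow control. HFD renin replicate 1 was the highest of all hearts, and chow control 3 overlapped the lower end of HFD renin. The log2 fold change was 1.31 ± 0.23 (adjusted p = 0.00204) against HFD control, 0.94 ± 0.26 (adjusted p = 0.0296) against chow control and 0.95 ± 0.23 (adjusted p = 0.00487) against chow renin, with an interaction of 1.31 ± 0.33 (adjusted p = 0.0135). Myot (myotilin, a cross-linker of actin at the Z-disc) read 114, 76.2, 105, 66.7 and 88.6 CPM in HFD renin, 23.9 to 56.5 (median 50.7) in HFD control, 35.6 to 108 (median 73.5) in chow renin and 62.6, 55.3, 78.2 and 37.4 in chow control. HFD renin lay above every HFD control heart, at 0.94 ± 0.25 (adjusted p = 0.0247). Tcap ran against the other called Z-disc genes, with 871, 823, 1156, 1296 and 838 CPM in HFD renin, 1127 to 1605 (median 1386) in HFD control, 982 to 1317 (median 1153) in chow renin and 1283, 1163, 1239.7 and 1377 in chow control, and -0.43 ± 0.11 (adjusted p = 0.0168) on the log2 scale against HFD control. Its HFD renin replicates 3 and 4 lay within the HFD control range and the other hearts of the group below it. Nexn, an actin-binding protein of the Z-disc, read 488, 438, 469, 427 and 472 CPM in HFD renin, 443 to 529.9 (median 469) in HFD control, 393 to 425 (median 402) in chow renin and 471, 436, 437 and 439 in chow control. HFD renin lay above all chow renin hearts, at 0.18 ± 0.06 (adjusted p = 0.0278) on the log2 scale. The other Z-disc genes were called in no comparison: against HFD control, Actn2 (α-actinin 2) had a log2 fold change of 0.18 ± 0.08, Ldb3 0.14 ± 0.07, Myoz2 0.13 ± 0.08, Mypn 0.09 ± 0.09 and Nebl -0.09 ± 0.07. Leaving out 1 library ended the calls of Synpo2l without chow control 1, 2 or 4 and HFD renin 1 or 5 (adjusted p 0.0601 to 0.0955) against chow control. Against HFD control it ended those of Myot without HFD renin 1 or 5 (adjusted p 0.0553 to 0.0893) and Tcap without HFD renin 1, 2 or 5 (adjusted p 0.0596 to 0.0618). Against chow renin it ended that of Nexn without chow renin 1, 3, 4, 5 or 6 and HFD renin 1, 3 or 5 (adjusted p 0.0509 to 0.144).

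Upstream sequence was read for the 30 of 37 members matched in the RefSeq table of the build GRCm38.p6, as the 250 bases before the start. The start was the RefSeq one nearest to that of the most abundant transcript. It lay 7762 bases from that transcript's start in Myl2 and 38475 bases in Myom3, whose MEF2 match is counted below. The CArG box, bound by serum response factor, was found on either strand in 4 of 30 members and in 1.47% of 32851 promoters of the same length. The MEF2 site was in 5 of 30 and 2.92%, the MCAT element CATTCC in 11 of 30 and 12.6%, and the E-box CACGTG in 1 of 30 and 6.02%. A match is a description of letters in this window. The 4 stretches below belong to 2 Z-disc members that were higher in HFD renin than in each of the other groups (Flnc, Synpo2l), to titin and to Tnnt2, which fell, and show that both directions hold such letters; capitals mark the MCAT element in Flnc and Tnnt2 and the MEF2 site in Synpo2l and Ttn. They lie at chr6:29433006-29433255, plus strand (Flnc), chr14:20664575-20664824, minus strand (Synpo2l), chr2:76982548-76982797, minus strand (Ttn) and chr1:135836084-135836333, plus strand (Tnnt2), and are written 5′ to 3′ on the strand of the gene.
Flnc: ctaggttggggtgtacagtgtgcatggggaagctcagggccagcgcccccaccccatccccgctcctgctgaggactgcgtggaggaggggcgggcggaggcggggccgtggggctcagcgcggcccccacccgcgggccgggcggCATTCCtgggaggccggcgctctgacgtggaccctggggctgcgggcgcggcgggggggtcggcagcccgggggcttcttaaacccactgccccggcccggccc
Synpo2l: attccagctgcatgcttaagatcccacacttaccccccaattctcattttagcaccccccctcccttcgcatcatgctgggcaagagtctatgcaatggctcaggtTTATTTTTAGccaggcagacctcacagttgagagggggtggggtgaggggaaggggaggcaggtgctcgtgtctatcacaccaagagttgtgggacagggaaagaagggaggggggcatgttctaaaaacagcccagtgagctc
Ttn: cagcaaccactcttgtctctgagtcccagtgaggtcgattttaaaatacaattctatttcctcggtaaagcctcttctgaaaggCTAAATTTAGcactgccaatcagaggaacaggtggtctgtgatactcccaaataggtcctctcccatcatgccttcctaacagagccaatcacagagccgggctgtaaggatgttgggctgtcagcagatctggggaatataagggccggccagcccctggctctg
Tnnt2: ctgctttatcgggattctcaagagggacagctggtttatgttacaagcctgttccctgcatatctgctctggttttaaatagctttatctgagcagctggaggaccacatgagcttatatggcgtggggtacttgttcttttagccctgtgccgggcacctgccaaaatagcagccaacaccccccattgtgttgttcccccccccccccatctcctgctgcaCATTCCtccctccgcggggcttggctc
The match lies 104 bases before the start in Flnc, 144 in Synpo2l, 166 in Ttn and 27 in Tnnt2. None of the motifs searched was found in the windows of Tnni3, Pdlim5 and Des.

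At the M-band, Myom1 (myomesin 1, which cross-links thick filaments) read 1977, 2003, 1553, 1425 and 1822 CPM in HFD renin, 1069 to 1499 (median 1289) in HFD control, 1321 to 1419.6 (median 1397) in chow renin and 1546, 1525, 1262 and 1355 in chow control. The HFD renin hearts lay above all chow renin hearts, and replicate 4 fell within the HFD control range. The difference on the log2 scale was 0.45 ± 0.09 (adjusted p = 0.00267) against HFD control and 0.34 ± 0.09 (adjusted p = 0.00632) against chow renin, both held without any 1 library, and its interaction was 0.48 ± 0.13 (adjusted p = 0.0145). Myom3 stayed low, with 4.42, 4.1, 4.02, 3.35 and 3.38 CPM in HFD renin, 2.18 to 3.43 (median 2.42) in HFD control, 2.68 to 5.43 (median 3.57) in chow renin and 4.33, 2.89, 4.98 and 3.39 in chow control, and its log2 fold change against HFD control was 0.58 ± 0.17 (adjusted p = 0.0325). Myom2 varied widely within HFD renin, from 856 to 2249 CPM, and was called in no comparison. The interaction of Myom1 was lost without chow control 1 or 2 and HFD renin 1 (adjusted p 0.0508 to 0.0568), and the call of Myom3 was lost without HFD control 1, 2, 3 or 6 and HFD renin 1, 2 or 5 (adjusted p 0.0503 to 0.104).

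Of the 3 genes for the ends of the thin filament, 2 were lower in chow renin than in chow control. Lmod3, a leiomodin that nucleates actin (chr6:97238534-97252759, minus strand), read 71.4 to 81.4 (median 76.7) CPM in chow renin and 99.5, 102, 99.2 and 109 in chow control, with 64.6 to 91.7 (median 84.4) in HFD control and 93.5, 83.3, 84.3, 85.4 and 96.7 in HFD renin. Chow renin did not overlap chow control. Its log2 fold change for renin on chow was -0.43 ± 0.08 (adjusted p = 0.000478), and the interaction was 0.56 ± 0.11 (adjusted p = 0.00129). Tmod1 (tropomodulin 1, which caps the pointed end) read 329.6, 322, 301, 307 and 315 CPM in HFD renin, 277 to 326 (median 307) in HFD control, 262 to 277 (median 272) in chow renin and 335, 349.8, 311 and 308 in chow control. Every chow renin heart lay below every chow control heart, at -0.27 ± 0.06 (adjusted p = 0.000997), and its interaction was 0.31 ± 0.08 (adjusted p = 0.00776). HFD renin against HFD control had 0.13 ± 0.08 for Lmod3 and 0.04 ± 0.05 for Tmod1, neither called. Against chow renin, HFD renin was higher by 0.22 ± 0.05 (adjusted p = 0.00313) for Tmod1 and 0.22 ± 0.08 (adjusted p = 0.0413) for Lmod3. Only the last of these calls of Lmod3 and Tmod1 was lost without a library, namely chow renin 1, 2, 3, 4, 5 or 6 and HFD renin 1 or 5 (adjusted p 0.0572 to 0.178). Lmod2 was called in no comparison (0.26 ± 0.14 against HFD control). The same 6 chow renin hearts carried the high sums of central neuron, oligodendrocyte and astrocyte markers given above, and the part of these in the falls of Lmod3 and Tmod1 was not tested. The 12 cardiomyocyte markers outside the list had a mean log2 CPM of 8.92 in chow renin (8.86 to 9.04) against 9.14 in chow control (8.99 to 9.22). Their part in the falls of Tpm1, Lmod3, Tmod1 and Fbxl22 was not tested.

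The PDZ-LIM genes code for proteins that sit on α-actinin and bind signalling kinases. Of the 3, Pdlim1 and Pdlim5 were higher in HFD renin than in HFD control and chow renin. Pdlim5 read 774, 669.96, 580.1, 577 and 702 CPM in HFD renin, 399.8 to 549 (median 499.9) in HFD control, 440.2 to 499 (median 456) in chow renin and 629, 594, 473 and 497 in chow control. HFD renin lay above every heart of HFD control and chow renin and overlapped chow control. The log2 fold change was 0.42 ± 0.09 (adjusted p = 0.00473) against HFD control and 0.50 ± 0.09 (adjusted p = 0.000174) against chow renin, and the interaction was 0.66 ± 0.13 (adjusted p = 0.00113). All these calls of Pdlim5 held without any 1 library. Against chow control Pdlim5 was not called, at 0.27 ± 0.10 (adjusted p = 0.0961). Pdlim1 read 86.3, 76.8, 56.2, 49.9 and 70.7 CPM in HFD renin, 37.8 to 52.8 (median 44.7) in HFD control, 40.6 to 58.4 (median 50.2) in chow renin and 45.2, 48.4, 47.7 and 52.3 in chow control. Replicate 4 was the lowest of HFD renin and overlapped every other group. Its log2 fold change was 0.62 ± 0.12 (adjusted p = 0.00241) against HFD control, 0.49 ± 0.13 (adjusted p = 0.0241) against chow control, 0.44 ± 0.12 (adjusted p = 0.00776) against chow renin and 0.58 ± 0.17 (adjusted p = 0.0319) for the interaction. The call against HFD control held without any 1 library. Pdlim3 was called in no comparison and had -0.64 ± 0.44 against HFD control. Leaving out 1 library ended the calls of Pdlim1 without chow control 1 or 2 and HFD renin 1, 2 or 5 (adjusted p 0.0555 to 0.0813) against chow control and Pdlim1 without HFD renin 1 (adjusted p = 0.0557) against chow renin. The interaction of Pdlim1 was lost without chow control 1, 2 or 4, chow renin 1 or 3, HFD control 3 or 6 and HFD renin 1, 2 or 5 (adjusted p 0.0503 to 0.0899).

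Des, which codes for desmin, the intermediate filament that links Z-discs to each other and to the membrane, read 1888, 2029, 1768, 1691 and 2074 CPM in HFD renin, 1371 to 1588 (median 1518) in HFD control, 1430.3 to 1749 (median 1639.7) in chow renin and 1652, 1627, 1706 and 1665 in chow control. All 5 HFD renin hearts were above all HFD control hearts. Des differed on the log2 scale by 0.34 ± 0.06 (adjusted p = 0.00204) against HFD control, 0.22 ± 0.06 (adjusted p = 0.014) against chow renin and 0.37 ± 0.09 (adjusted p = 0.00857) for the interaction. Against chow control it was not called, at 0.18 ± 0.07 (adjusted p = 0.106), and the groups overlapped. Smpx, a small muscle protein of the costamere, read 159, 159, 136, 128 and 144 CPM in HFD renin, 116 to 142 (median 128) in HFD control, 107 to 123 (median 118) in chow renin and 137, 134, 124 and 125 in chow control. HFD renin and chow renin did not overlap, at 0.32 ± 0.06 (adjusted p = 0.000582) between them and 0.33 ± 0.09 (adjusted p = 0.02) for the interaction. Leaving out 1 library ended the call of Des without chow renin 1 or 3 and HFD renin 1 or 5 (adjusted p 0.0553 to 0.0632) against chow renin. The interaction of Smpx was lost without chow control 1 or 2, chow renin 1 and HFD renin 1 (adjusted p 0.0535 to 0.0743).

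Of the genes for assembly, turnover and splicing, Fbxl22 moved the most. It codes for an F-box protein of cardiac muscle that targets α-actinin and filamin C for degradation. Fbxl22 (chr9:66508459-66514593, minus strand) read 27 to 35.4 (median 30.3) CPM in chow renin and 58.1, 64, 38.7 and 46.4 in chow control, with 39.1 to 57.7 (median 44.6) in HFD control and 54.8, 36, 30.8, 36.4 and 40.9 in HFD renin. All chow renin hearts lay below all chow control hearts. The log2 fold change for renin on chow was -0.75 ± 0.15 (adjusted p = 0.000767), held without any 1 library, and the interaction was 0.53 ± 0.20 (adjusted p = 0.106). Smyd1, a methyltransferase of muscle that acts in myosin assembly, read 652, 604, 506, 485 and 509.6 CPM in HFD renin, 378 to 586 (median 507) in HFD control, 435 to 475 (median 467) in chow renin and 530.1, 528, 480.3 and 496 in chow control. It was 0.26 ± 0.09 (adjusted p = 0.0314) in HFD renin against chow renin, and the call was lost without chow renin 1, 3, 5 or 6 and HFD renin 1 or 2 (adjusted p 0.0576 to 0.213). The ubiquitin ligases of muscle loss, Trim63 (MuRF1) and Fbxo32 (atrogin-1), were called in no comparison, with 0.31 ± 0.11 (adjusted p = 0.0765) and 0.21 ± 0.15 (adjusted p = 0.399) against chow control. Rbm20, the splicing factor of titin, was also called in none (0.01 ± 0.11 against HFD control).

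The other genes of the sarcomere, a list of 76 genes found of which 72 were tested, were read from the same fits. In HFD renin, 22 were called against HFD control (17 higher and 5 lower), where 11.1% of all genes were. Against chow control 15 were (12 and 3) and 8.29% of all genes, and against chow renin 31 (28 and 3) and 22.6%. In chow renin 8 were lower and 0 higher than in chow control, where 3.36% of all genes were lower and 10.1% higher. HFD alone had 0 past the threshold (6 of 72 at an unadjusted p under 0.05, where 1668 of all 15216 genes were), and the interaction was called in 8, all positive, where 3.14% of all genes were positive and 7.30% negative. Against HFD control the called genes of largest log2 fold change were Acta1 (skeletal α-actin) at 3.91 ± 0.57, Myh7 (β-myosin heavy chain) at 2.57 ± 0.49, Xirp2 at 1.98 ± 0.25, Ankrd2 at 1.88 ± 0.52, Ankrd1 at 1.73 ± 0.32, Ankrd23 at 1.40 ± 0.22, Tnni2 at -1.11 ± 0.34 and Sorbs2 at 0.96 ± 0.17. Ankrd2 and Tnni2 stayed below 1 CPM in the mean of every group. Against chow control they were Acta1 at 2.68 ± 0.63, Myh7 at 2.05 ± 0.56, Xirp2 at 1.78 ± 0.29, Ankrd23 at 1.57 ± 0.26, Ankrd1 at 1.30 ± 0.36, Myl1 at 1.03 ± 0.28, Sorbs2 at 0.92 ± 0.19 and Tnnt1 at -0.91 ± 0.18. In chow renin against chow control they were Actc1 (cardiac α-actin) at -0.50 ± 0.11, Jph2 at -0.29 ± 0.09, Tnni3k at -0.28 ± 0.08, Speg at -0.26 ± 0.07, Unc45b at -0.26 ± 0.08, Klhl31 at -0.25 ± 0.08, Myh6 (α-myosin heavy chain) at -0.25 ± 0.08 and Palld at -0.21 ± 0.06. Against chow renin Acta1 led at 1.81 ± 0.53, before Xirp2 at 1.52 ± 0.25, Myl1 at 1.10 ± 0.24, Ankrd23 at 1.10 ± 0.22, Ankrd1 at 0.94 ± 0.31, Sorbs2 at 0.80 ± 0.17, Fbxo40 at 0.69 ± 0.13 and Fhl1 at 0.63 ± 0.11. The 8 interactions were Acta1 at 3.04 ± 0.76, Xirp2 at 1.72 ± 0.36, Sorbs2 at 0.83 ± 0.25, Fbxo40 at 0.72 ± 0.19, Actc1 at 0.66 ± 0.15, Hspb8 at 0.54 ± 0.13, Alpk3 at 0.51 ± 0.15 and Cryab at 0.41 ± 0.13.

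3 features were set beside these results: a clock score, transcript length and an atrial score. The clock score, the mean log2 CPM of the Bmal1 arm minus that of the Per and Rev-erb arm, ran from -3.84 to -3.53 in chow control, -3.27 to -2.98 in chow renin, -3.61 to -3.31 in HFD control and -3.36 to -2.18 in HFD renin. With this score as a covariate 0 members were called in HFD renin against either control group, and 0 of all genes were. The clock scores of HFD renin and of chow renin do not overlap those of chow control, so group and score cannot be told apart there. Of the HFD renin hearts, only replicate 3, at -3.36, lay within the range of HFD control. HFD renin 1 stood at -2.18 and the next highest, HFD renin 2, at -2.91. The weight of HFD renin 1 in the fit with this score was not tested. With the same covariate 9 members were called against chow renin (17.4% of all genes), 7 for renin on chow (9.82%) and 11 for the interaction (12.8%). For Flnc the log2 value went from 0.73 to 0.12 (adjusted p = 0.907) against chow control and from 0.78 to 0.36 (adjusted p = 0.572) against HFD control. It went from 0.76 to 0.58 (adjusted p = 7.62e-05) against chow renin, and its interaction from 0.82 to 0.83 (adjusted p = 8.86e-05). Against chow control, Pdlim1 went from 0.49 to 0.04 (adjusted p = 0.973), Tnni3 from -0.48 to -0.23 (adjusted p = 0.709) and Tnnt2 from -0.43 to -0.23 (adjusted p = 0.694). Against HFD control, Tnni3 went from -0.53 to -0.36 (adjusted p = 0.413) and Tnnt2 from -0.39 to -0.25 (adjusted p = 0.636). Of the 30 calls lost with this covariate, 11 kept a log2 value within 1.5 times of that without it. Among them were Myl3 against chow control, from -0.32 to -0.33 (adjusted p = 0.665), and against HFD control Des, from 0.34 to 0.27 (adjusted p = 0.512), and Myom3, from 0.58 to 0.47 (adjusted p = 0.755). Synpo2l against chow renin went from 0.95 to 0.62 (adjusted p = 0.00538) and kept its call. Transcript length moved with the fold changes as well: across 36 members, Spearman's rho between length and log2 fold change was 0.46 for HFD renin against HFD control and 0.37 against chow control, and 0.30 and 0.23 across 5561 genes of at least 20 CPM. Against chow renin rho was 0.49 across members and 0.11 across those genes, and for the interaction 0.46 and 0.18. It was 0.18 and 0.17 for renin on chow and -0.19 and -0.14 for HFD alone. These are descriptions across genes, which share libraries and are not independent replicates. With the length trend of each library removed, 8 calls were lost. The fold changed by over 1.5 times in Ttn against HFD control, from 0.28 to 0.10 (adjusted p = 0.269), in Tpm1 for renin on chow, from -0.25 to -0.14 (adjusted p = 0.125), and in Nexn against chow renin, from 0.18 to 0.12 (adjusted p = 0.105). Ttn against chow renin went from 0.32 to 0.19 (adjusted p = 0.0139) and kept its call. The fold changed less in Mybpc3 against HFD control, from 0.43 to 0.38 (adjusted p = 0.0661), and in Myl3 against chow control, from -0.32 to -0.27 (adjusted p = 0.0908). The same holds against chow renin for Lmod3, from 0.22 to 0.16 (adjusted p = 0.124), Des, from 0.22 to 0.15 (adjusted p = 0.0595), and Smyd1, from 0.26 to 0.20 (adjusted p = 0.0701). Calls gained in that fit were Myom1 against chow control at 0.26 (adjusted p = 0.0428), Ttn for renin on chow at -0.19 (adjusted p = 0.0271), Smpx against HFD control at 0.24 (adjusted p = 0.017) and the interaction of Tnni3 at -0.32 (adjusted p = 0.0252). Tnni3 and Tnnt2 kept their calls against both control groups. The fragment length implied by the files was 320 to 341 bases in all libraries.

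**Figure D4:**
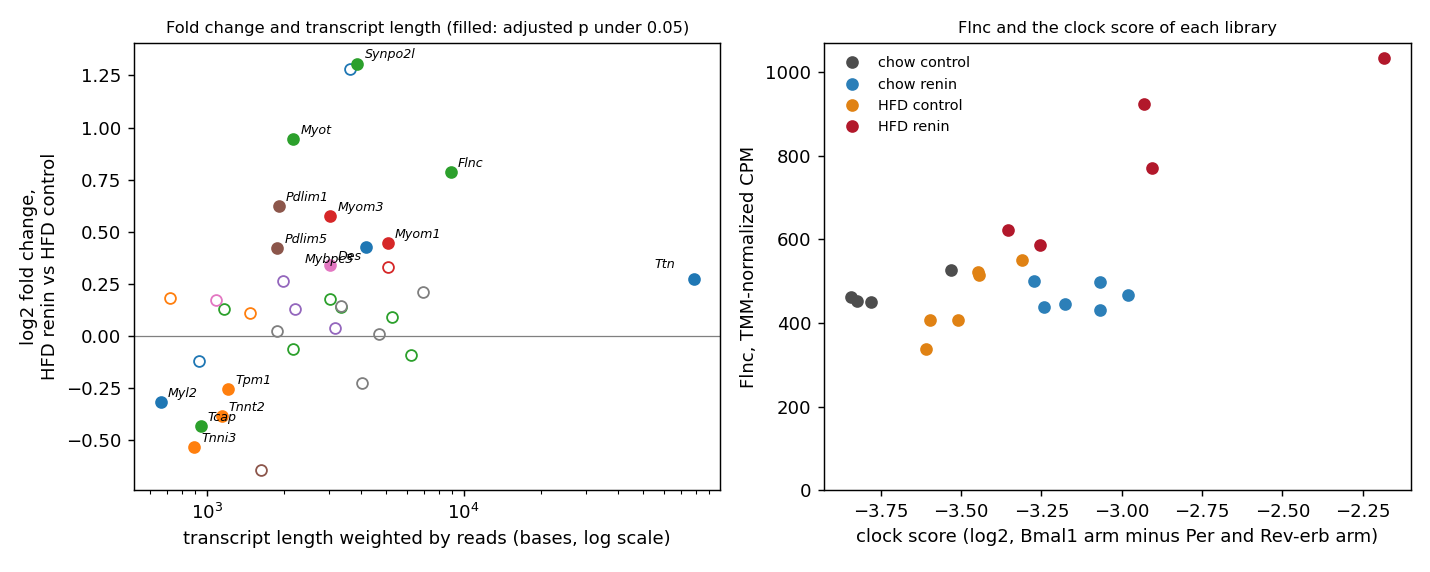
Left, log2 fold change of 36 members in HFD renin against HFD control over transcript length on a log axis, filled where the adjusted p is under 0.05; right, Flnc in CPM against the clock score of each of 21 hearts. The called members that are lower sit among the shorter transcripts, and the hearts of HFD renin hold the highest Flnc values, 587 to 1034 CPM.

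The third was the atrial score. Mybpc2 and Tpm2 were higher in the libraries of high atrial score than in all other libraries of their group in 4 of 4 groups, and Pdlim3 and Tnni1 in 3. Mean levels in the 5 libraries were 2.19 times those of the others for Mybpc2, 1.91 for Pdlim3 and 1.74 for Tpm2. For Tnni1 they were 6.26 times as high, with means of 0.599 and 0.0956 CPM. Each group holds at least 1 such library, and with the score as a covariate none of the 52 calls of members was lost. Without these 5 libraries, and so with fewer hearts, 14 calls were lost and the 3 of Mybpc2 given above were gained. Against HFD control Ttn went from 0.28 to 0.28 (adjusted p = 0.0813), Mybpc3 from 0.43 to 0.38 (adjusted p = 0.161), Myom3 from 0.58 to 0.53 (adjusted p = 0.0564) and Myot from 0.94 to 0.88 (adjusted p = 0.063). The folds of the lost calls thus stayed within 1.5 times of their size over all hearts. The other losses were Ttn, Nexn, Lmod3, Des and Smyd1 against chow renin, Tpm1 for renin on chow, and Ttn, Pdlim1, Des and Smpx in the interaction.

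**Figure D5:**
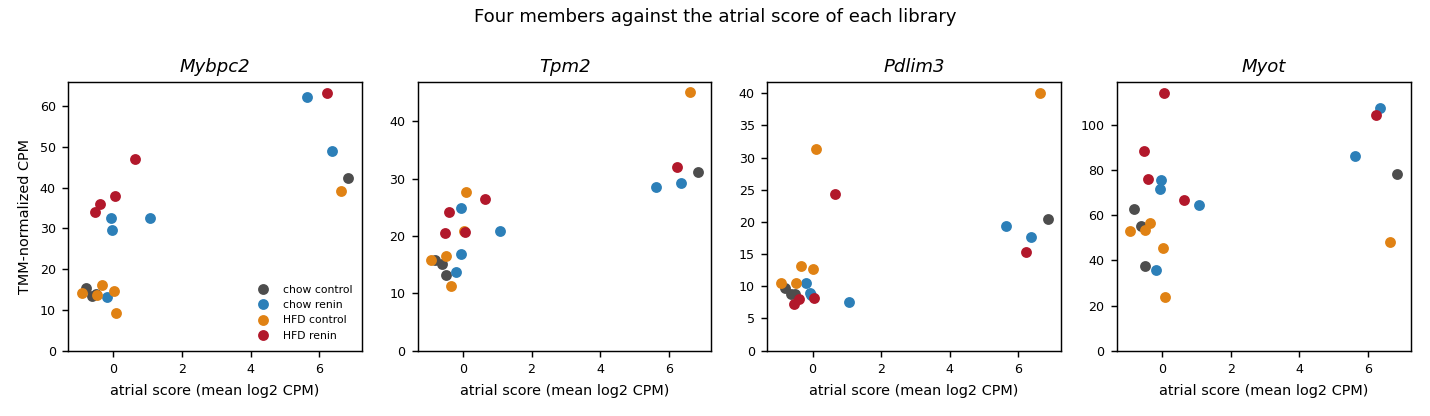
CPM of Mybpc2, Tpm2, Pdlim3 and Myot against the atrial score (mean log2 CPM of atrial genes) in 21 hearts, coloured by group. The 5 libraries with scores of 5.63 to 6.86 stand apart on the right and hold high values of Mybpc2 and Tpm2.

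Which transcripts the members used was not shown to differ. The planned test of usage (the gene-level F test of diffSpliceDGE in edgeR) called 2 of 28 members tested in HFD renin against chow control, Myl2 and Nebl, where 1.43% of 9356 genes were called. It called 6 against HFD control, Myl2, Tnnt2, Pdlim5, Nebl, Myom1 and Flnc, where 2.23% were. That test failed on simulated data: it called 80 genes in counts with no change at all, and 67.5% of its calls in counts with 200 changed genes were of unchanged ones. Its calls are therefore not taken as results. A test on each transcript's share per library (limma on log2 of its reads over the rest of its gene, with a Simes p-value per gene), chosen on simulated data after this failure, called 1 gene in the counts with no change, and 6.74% of its calls were false. With it 0 members were called in either comparison, where 0.0321% and 0.0534% of all genes were. At an unadjusted p under 0.05 there were 9 and 12 members of 28, and 8.27% and 9.23% of all genes. It found 41.5% of the genes whose main transcript had been lowered 4-fold in the simulation against chow control, so smaller shifts can be missed. Pdlim5-202 held 43.4% ± 2.63 of Pdlim5 TPM in HFD renin and 39.9% ± 6.17 in HFD control (SD), and Pdlim5-205 24.2% ± 3.34 and 30.2% ± 2.26 (gene adjusted p = 0.365). In the same order of groups, Myom1-203 held 61.3% ± 9.16 and 48.4% ± 11.2 and Myom1-208 27.3% ± 11.3 and 44.7% ± 13.8 of Myom1 (gene adjusted p = 0.596). Nebl-201 held 44.2% ± 3.46 and 46.8% ± 3.28 and Nebl-202 19.6% ± 1.73 and 16.7% ± 2.13 of Nebl. Tnnt2-211 held 58% ± 1.3 and 59.3% ± 1.85 and Tnnt2-210 15.3% ± 0.514 and 16.4% ± 1.15 of Tnnt2. Myl2-201 held 94.3% ± 1.15 and 95.9% ± 0.223 and Myl2-203 2.09% ± 1.31 and 0.438% ± 0.14 of Myl2. Flnc-202 held 92.8% ± 0.731 and 92.4% ± 1.98 and Flnc-203 6.27% ± 0.83 and 5.53% ± 2.5 of Flnc. Pdlim5-204 held 16.8% ± 3.53 and 9.53% ± 1.68 of Pdlim5 (transcript adjusted p = 0.229), with overlapping ranges. HFD renin and HFD control did not overlap in the shares of Tnnt2-207, at 3.88% ± 0.943 and 1.18% ± 0.667 (transcript adjusted p = 0.295), and of Tpm2-203, at 70% ± 5.76 and 83.3% ± 5.66 (transcript adjusted p = 0.142). They also did not overlap in Myl2-201, Myl2-203, Tnnt2-212 and Ldb3-207, whose transcript adjusted p ran from 0.173 to 0.772. These transcripts were chosen after their values were seen. How many of the 34564 transcripts tested also did not overlap was not counted. The files give no error of the assignment of reads to transcripts.

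The authors' deposited table gives its own comparison under a heading of HFD plus virus, without naming the reference group. In the authors' deposited table an adjusted p under 0.05 was given to 8 of the 37 members (8.04% of the 16122 genes with an adjusted p there). They were 3 higher and 5 lower, all of them also called here against chow control. The authors' deposited table lists log2 fold changes of 0.62 for Flnc, 0.72 for Synpo2l, -0.43 for Tnni3 and -0.38 for Tnnt2. It comes from the same hearts.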

How the data were processed

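RNA of 21 hearts was extracted with RNeasy columns and sequenced, per the labels' protocols. Per the submitters' processing notes, Salmon 1.10.2, DESeq2 1.40.2 and the builds GRCm38 and mm10 were used, without further detail. Each library's file gives the authors' estimated counts per transcript, and the deposited TPM values beside them. The authors' deposited table holds log2 changes with adjusted p-values per gene, and its reference group is not stated. Its 21 columns of values per sample were not used.

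Estimated counts were summed to genes with GENCODE M21 (GRCm38), in which 98.0% of 119215 transcripts matched, and the sums were rounded. Of the reads, 0.854% to 0.925% stayed unmatched. After edgeR's filter, 15216 genes holding 99.96% of reads of 23718 genes were tested. 1 quasi-likelihood fit of edgeR 4.0.16 (R 4.3.3, TMM, robust) covered all 21 libraries with a term per group, and p-values were Benjamini-Hochberg adjusted over all genes tested. Calls have an adjusted p under 0.05. TMM factors were 0.886 to 1.09. limma 3.58.1 and DESeq2 1.42.0 served as alternatives. Nothing in the labels says whether hearts were processed in batches, and p-values measure the spread between these hearts.

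On simulated counts of 15012 genes with 200 changed, for HFD renin against chow control, the gene test called 78% of changes of log2 size 1 and 99% of size 2, and 3.80% of its calls were false. The planned test of transcript usage failed on simulated counts and was set aside for a share test. Labels share replicate numbers between groups but do not say that these pair hearts. The members, lists and tests were chosen with earlier results of these data known. The text names every member, with values in each group where any comparison called it, up to 8 called genes of the other sarcomere genes per comparison by size of change, and the 2 main transcripts of the members that the planned usage test called.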

Additional observations from a re-analysis of the deposited data

Results flagged for a closer look

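Of 148 sets of values of 1 member in 1 group, 15 held a heart far from the others of its group, and chance flags about 1 in 20 such groups. Chow control 3, a library of high atrial score, was apart in 6 members: Mybpc2 at 42.3 CPM, Tpm2 at 31.1, Pdlim3 at 20.5 and Flnc at 526 were high, while Myl3 at 3277 and Tnnt2 at 6646 were low. HFD control 3 was apart with Mybpc2 at 39.3 CPM and Tnni1 at 0.594, and HFD renin 3 with Tnni1 at 0.646. Both are also libraries of high atrial score. HFD control 6 was low in Lmod2 at 385 CPM and in Myot at 23.9. Chow renin 1 was low in Myom1 at 1321 CPM, chow control 1 was high in Nexn at 471, HFD renin 4 was low in Mypn at 137, and chow renin 6 was high in Rbm20 at 213.

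The effect of renin differed between the diets in 10 members by the interaction term of edgeR. Its log2 value was 1.31 for Synpo2l, 0.82 for Flnc, 0.66 for Pdlim5, 0.58 for Pdlim1, 0.56 for Lmod3, 0.48 for Myom1, 0.42 for Ttn, 0.37 for Des, 0.33 for Smpx and 0.31 for Tmod1. In Lmod3 and Tmod1 the called difference lay on chow, where renin hearts were lower, and in Flnc, Synpo2l, Pdlim5, Pdlim1, Myom1, Ttn and Des it lay on the HFD. Smpx was called under renin between the diets.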

How the results depend on the processing

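The fall of Tnni3 and Tnnt2 and the rise of Flnc in HFD renin against both control groups held in every fit that left out 1 library, while 214 of 1162 recomputed values of the 52 calls of members, over all settings, were past the threshold no longer. With the clock score as a covariate the counts of members called became 0 (HFD renin against chow control), 0 (against HFD control), 9 (against chow renin), 7 (renin on chow) and 11 (interaction), and Synpo2l against chow control turned to -0.0726 (adjusted p = 0.969). Without the 5 libraries of high atrial score, an alternative chosen after seeing the data like the length trend and the share test, the interaction count was 6. The share of all genes called in that fit is not given here. DESeq2 called 1 member for the HFD alone, and of all genes 42 higher and 67 lower where edgeR called 2 and 8. With the length trend removed, 90.6%, 25.1% and 17.9% of all called genes were higher for renin on chow, HFD renin against chow renin and the interaction.

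Leaving out 1 library at a time gave 4 to 12 members against chow control, 8 to 16 against HFD control, 6 to 16 against chow renin, 3 to 8 for renin on chow, 0 to 1 for diet alone and 6 to 11 for the interaction. For transcript usage it gave 1 to 3 against chow control and 3 to 6 against HFD control. The share test called 0 and 0 members, and the planned usage test on transcripts of at least 5% of their gene called 1 and 2. The shares of all genes called in these refits are not given, so changes of the members cannot be told from changes over all genes. The causes were not tested.

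Same-numbered hearts of different groups had correlations of -0.219 to 0.445 (median 0.0912), 13 of 28 over 0.1, against a median of -0.00734 for other pairs of hearts. The labels state no pairing, so the numbers were not taken to pair hearts, although replicate 3 of all 4 groups is a library of high atrial score. A fit with a replicate block called 15 members in HFD renin against chow control and 7 for renin on chow, where it called 8.71% and 14.8% of all genes. It ended the calls of Myom3 against HFD control (adjusted p = 0.0555) and of Tnnt2 and Smyd1 against chow renin (0.0529 and 0.0523), and no other call of a member was lost with the block.

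The shallowest libraries are all chow control, and Tnni1, Pdlim3 and Mybpc2 had the largest standard errors of the members in all 6 comparisons.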
